A study of Homo sapiens with 4 samples.

Results

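Chromosome arm 1q held 262 of the 4680 H4K5la peaks placed on chromosomes 1 to 22, X and Y in SH-SY5Y neuroblastoma cells. They were all peaks on chromosome 1 whose centre lay above position 143299518 of hg38. The DNAJC12KO list gave 151 of them and the WT list 111. The series has 4 libraries, an H4K5la immunoprecipitate and an input of DNAJC12KO cells and the same of WT cells, 1 of each. SH-SY5Y is a human neuroblastoma line with a neuronal character. The DNAJC12KO cells are the line with DNAJC12 knocked out and the WT cells the line as labelled wild type, and the labels name no treatment. Whether the knockout is 1 clone is not given in the sources used here, and peak lists carry no expression against which the knockout or the cell type could be checked. The authors deposited 1 list of broad peaks per genotype, each peak with a fold enrichment over background (a linear ratio) and a -log10 p and -log10 q from the peak caller. With 1 library per genotype there was no replicate and no test between genotypes. Intervals are exact Clopper-Pearson binomial intervals at 95% and cover counting error only.

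H4K5la is lactylation of lysine 5 of histone H4, an acyl mark that draws on lactate, the end product of glycolysis under low oxygen or high sugar use. Histone lactylation has been described at active promoters and enhancers. DNAJC12 is a co-chaperone that helps fold the aromatic amino acid hydroxylases, among them tyrosine hydroxylase of dopamine synthesis. The arm begins with pericentromeric heterochromatin and segmentally duplicated gene families. It goes on through the epidermal differentiation and S100 genes to a distal part with WNT ligands and a small histone gene cluster. SH-SY5Y cells are known to carry an extra copy of a 1q segment, besides gains on chromosomes 2, 7 and 17.

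A peak touched 3 of the 833 promoters of 1q genes (0.360%) in the RefSeq promoter table, against 38 of all 15842 (0.240%), and they are shown because no other promoter window of the arm in the table holds part of a peak. Each window runs 250 bases before to 50 bases after the annotated start (RefSeq, GRCh38.p14), 5′ to 3′ on the gene's strand. Capitals mark 3 motifs, searched on both strands. The TATA box letters TATAAA are held by 9.63% of the 15842 promoters in the table. The GC box letters GGGCGG are held by 58.5%, and the E-box letters CANNTG by 64.5%. ACTA1, the skeletal muscle alpha-actin gene, had a peak over its start in both lists (chr1:229434045-229434344, minus strand). PRSS38, a serine protease gene, had a peak just after its start in the DNAJC12KO list (chr1:227815425-227815724, plus strand). NPR1, the receptor for atrial natriuretic peptide, had a peak just before its start in the WT list (chr1:153678438-153678737, plus strand).
ACTA1: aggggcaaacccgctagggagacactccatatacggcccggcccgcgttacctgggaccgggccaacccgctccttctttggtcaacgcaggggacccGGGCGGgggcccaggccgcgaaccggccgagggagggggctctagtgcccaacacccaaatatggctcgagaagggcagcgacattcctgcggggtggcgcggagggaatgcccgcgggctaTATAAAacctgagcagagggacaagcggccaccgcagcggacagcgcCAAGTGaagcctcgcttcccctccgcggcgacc
PRSS38: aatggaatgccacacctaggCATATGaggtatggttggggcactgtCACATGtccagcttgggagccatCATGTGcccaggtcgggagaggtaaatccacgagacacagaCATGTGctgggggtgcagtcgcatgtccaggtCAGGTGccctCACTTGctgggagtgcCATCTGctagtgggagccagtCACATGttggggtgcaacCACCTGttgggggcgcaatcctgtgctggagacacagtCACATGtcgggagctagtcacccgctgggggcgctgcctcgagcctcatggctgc
NPR1: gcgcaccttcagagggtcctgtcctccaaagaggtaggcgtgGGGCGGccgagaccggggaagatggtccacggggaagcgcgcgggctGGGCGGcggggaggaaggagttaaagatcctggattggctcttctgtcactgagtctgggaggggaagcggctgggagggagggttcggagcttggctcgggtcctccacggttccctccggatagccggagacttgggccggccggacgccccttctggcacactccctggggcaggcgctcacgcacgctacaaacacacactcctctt
The ACTA1 window has 68% G or C and 29 CpG, against medians of 62.7% and 22 over all promoters, and 1 match to each motif. Its TATAAA starts 30 bases before the start site. The DNAJC12KO peak ran from 216 bases before to 219 bases after the ACTA1 start and covered 266 of the 300 bases. The WT peak ran from 62 bases before to 646 bases after it and covered 112. The folds were 4.11 in DNAJC12KO and 4.02 in WT. The PRSS38 peak began 10 bases after the start and covered the last 40 bases of its window. The window has 10 matches to CANNTG, all of them before the covered bases, and none to the other motifs. The NPR1 peak ended 49 bases before the start and covered 202 bases of a window with 2 matches to GGGCGG. A match is a description of the letters only.

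A pair of miRNA genes lay inside peaks of the arm, and their mature sequences are shown with the seed, bases 2 to 8, in capitals (RefSeq, GRCh38.p14). MIR3620 lies in ARF1, which encodes a GTPase of Golgi transport, under a DNAJC12KO peak (chr1:228096910-228097540, fold 3.52). MIR6737 lies in SLC39A1, a zinc importer gene, under a WT peak (chr1:153962234-153962837, fold 3.32).
hsa-miR-3620-5p: gUGGGCUGggcugggcugggcc
hsa-miR-3620-3p: uCACCCUGcaucccgcacccag
hsa-miR-6737-5p: uUGGGGUGgucggcccuggag
hsa-miR-6737-3p: uCUGUGCUucaccccuacccag
No seed is shared among the 4 mature miRNAs. The other list had its nearest peak 7.62 kb from the MIR3620 peak and 19.6 kb from the MIR6737 peak.

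The peaks of the arm made up 5.50% of the DNAJC12KO list (4.68 to 6.43%) and 5.73% of the WT list (4.74 to 6.86%). Per 100 protein-coding genes the arm had 15.5 DNAJC12KO peaks and 11.4 WT peaks. On 1p, the short arm, there were 12.8 in DNAJC12KO and 9.20 in WT, and over all chromosomes 13.8 in DNAJC12KO and 9.75 in WT. The whole DNAJC12KO list is longer, and when it was shortened to the length of the WT list by -log10 q the arm held 104 DNAJC12KO and 111 WT peaks, which turns the direction of the difference in number. Median width was 471 bp in DNAJC12KO and 501 bp in WT, against 460 bp and 453 bp over the whole DNAJC12KO and WT lists, and 425.5 bp and 468 bp on 1p in DNAJC12KO and WT. The peaks covered 82.8 kb of the arm in DNAJC12KO and 62.2 kb in WT. Folds ran between 3.01 and 4.71 (median 3.51) in DNAJC12KO and between 3.03 and 5.19 (median 3.56) in WT. A fold of at least 4 was reached by 14 DNAJC12KO peaks (9.27%) and 8 WT peaks (7.21%) of 1q. On 1p it was reached by 23.2% of DNAJC12KO peaks and 35.4% of WT peaks, and over the whole lists by 17.3% in DNAJC12KO and 28.3% in WT. Nearest the position used as the boundary of the arm, the first DNAJC12KO peak was centred 0.802 Mb inside it (fold 3.68). The first WT peak was centred 0.803 Mb inside (fold 3.81). The nearest peaks on the other side were 31.3 Mb away in DNAJC12KO (fold 3.68) and 34.0 Mb away in WT (fold 3.90). How much of these distances is sequence in which peaks can be called was not examined.

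The shares of peaks inside genes and at gene ends were near those of the whole lists. The WT share near a start site was higher, but no interval was computed for it and nothing is read from the difference. Of the DNAJC12KO peaks, 85 (56.3%) were centred inside a protein-coding gene and 37 (24.5%) within 3 kb of an end of one. Of the WT peaks, 63 (56.8%) were inside and 32 (28.8%) at an end. Over the whole lists 58.7% of DNAJC12KO and 60.9% of WT peaks were inside a protein-coding gene, and 21.9% of DNAJC12KO and 25.1% of WT peaks were at an end. Another 6 DNAJC12KO and 3 WT peaks lay in other annotated genes, and 23 DNAJC12KO (15.2%) and 13 WT peaks (11.7%) lay outside annotated genes. The whole-list shares outside annotated genes were 14.9% in DNAJC12KO and 10.5% in WT. Few were near a start site of a protein-coding gene with an entry in the promoter table. Centred within 1 kb of one were 4 DNAJC12KO (2.65%) and 6 WT peaks (5.41%). The whole-list shares within 1 kb were 2.15% in DNAJC12KO and 2.43% in WT. Within 10 kb were 41 DNAJC12KO (27.2%) and 43 WT peaks (38.7%), against whole-list shares of 26.1% in DNAJC12KO and 30.8% in WT. Of the 106 bins of 1 Mb along the arm, 48 held a DNAJC12KO peak, 34 a WT peak, 28 both and 52 neither.

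**Figure D1:**
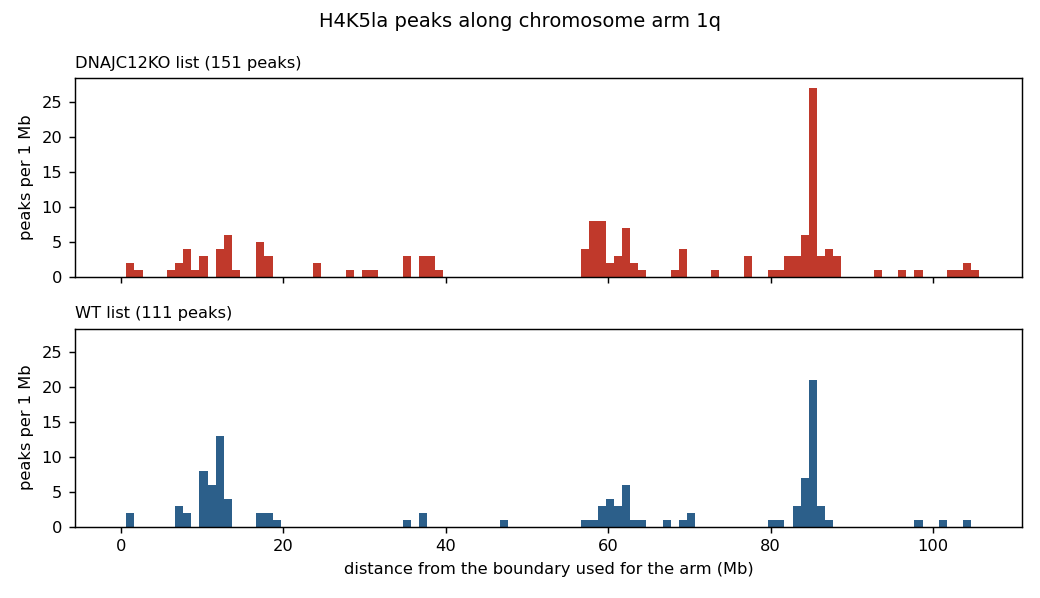
Number of peaks in each 1 Mb of chromosome 1 along arm 1q (y axis) by distance in Mb from the boundary used for the arm (x axis), with the DNAJC12KO list above the WT list. The highest bar in each panel, 27 DNAJC12KO and 21 WT peaks, is the stretch at 228 to 229 Mb.

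The inferred background was higher at 1q peaks than at 1p peaks in both lists. The peak caller compares a fragment count with a local background under a Poisson model, so the fold and the -log10 p of a peak together give the background, here in fragments after the authors' scaling. The sources used here do not say which library the caller took it from, the input control or the H4K5la one, so the values below may describe either. Its median on 1q was 2.29 in DNAJC12KO and 2.09 in WT. On 1p it was 1.63 in DNAJC12KO and 1.48 in WT, so that the ratio of 1q over 1p was 1.41 in each list. The median over the whole list was 1.75 in DNAJC12KO and 1.64 in WT. Median fold on 1q was 3.51 in DNAJC12KO and 3.56 in WT, against 3.74 and 3.90 on 1p in DNAJC12KO and WT. Median -log10 q was 1.49 on both arms in DNAJC12KO, and in WT 1.38 on 1q and 1.52 on 1p. At a like -log10 p a lower fold returns a higher background, so the lower folds and the higher background of 1q are not separate results. Of the 1q peaks, 143 of 151 in DNAJC12KO (94.7%) and 105 of 111 in WT (94.6%) had a background above the 1p median of their list. Within 10% of the lowest background of their list lay 8 DNAJC12KO peaks (5.30%) and 6 WT peaks (5.41%) of 1q, against 75 DNAJC12KO peaks (54.3%) and 52 WT peaks (52.5%) of 1p. With the arms of chromosome 1 counted apart and other chromosomes whole, 1q had the highest median among the 22 with at least 20 peaks in DNAJC12KO and the 21 in WT. Next in DNAJC12KO came chromosome 7 (2.16), chromosome 17 (2.15) and chromosome 2 (1.81). Next in WT came chromosome 17 (1.95), chromosome 7 (1.93) and chromosome 2 (1.86). These are the chromosomes with known gains in the line. The part of copy number in the background, and in the fold and number of peaks called, was not tested.

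**Figure D2:**
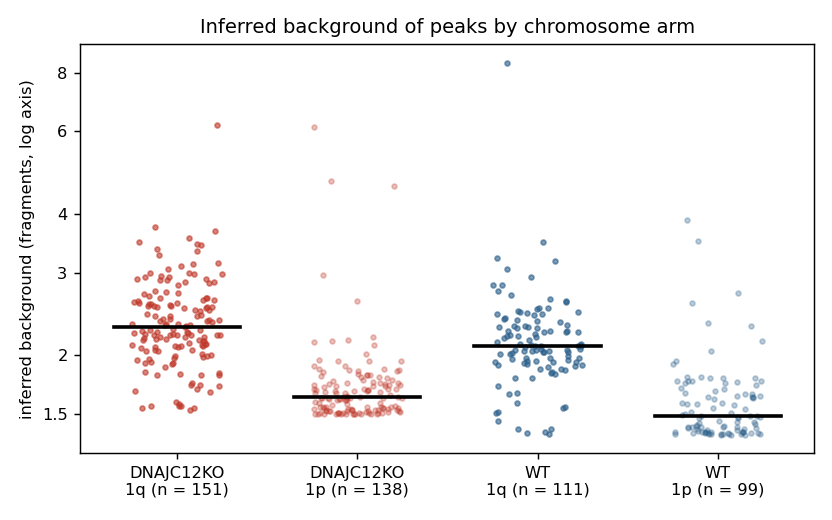
Inferred background of each peak in fragments (log axis) for 1q and 1p in the DNAJC12KO and WT lists. Points are peaks, spread sideways at random, and black lines are medians: 2.29 and 1.63 in DNAJC12KO, 2.09 and 1.48 in WT.

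A pair of neighbouring peaks near the boundary lay away from genes in both lists. The stronger of them had the highest -log10 q and the highest inferred background of the arm in each list. In DNAJC12KO it lay at chr1:144103125-144104814 with a fold of 3.99 and a -log10 q of 5.05, and in WT at chr1:144103150-144104740 with a fold of 3.66 and a -log10 q of 5.23. It ranked 3 in the whole DNAJC12KO list and 1 in the whole WT list. Its inferred background was 6.20 in DNAJC12KO and 8.41 in WT, which is 3.54 times the DNAJC12KO median and 5.12 times the WT median. It was the only 1q peak at 3 times the median or more in either list (0.662% of DNAJC12KO and 0.901% of WT 1q peaks), where 0.255% of all DNAJC12KO peaks and 0.207% of all WT peaks were. The next highest background on the arm was 3.75 in DNAJC12KO and 3.48 in WT. Its neighbour lay at chr1:144101407-144101730 in DNAJC12KO (fold 3.68, background 2.82) and at chr1:144101618-144102574 in WT (fold 3.81, background 3.17). Both pairs overlapped between lists. The closest protein-coding record, LOC105371206, was 48.1 kb from the stronger DNAJC12KO peak. How many copies of this sequence the genome holds was not examined here.

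The rest of the pericentromeric 7 Mb, with 80 protein-coding genes, held 2 more DNAJC12KO peaks and 1 more WT peak, all at genes. The DNAJC12KO peaks lay at ANKRD35 (fold 3.86) and SV2A (fold 3.39), which encodes a synaptic vesicle protein. The WT peak lay at PLEKHO1 (fold 3.50). At 2 times the list median or more, gene-linked peaks from outside these 7 Mb joined the pericentromeric one. In DNAJC12KO they were 3, at KIAA1614 (background 3.75, 37.6 Mb from the boundary), BLACAT1 (3.67, 62.2 Mb) and SYT2 (3.55, 59.4 Mb). In WT it was 1, at ZBTB7B (3.48, 11.7 Mb). Of the genes of duplicated pericentromeric families on the arm, 0 of 22 had a peak in either list, which allows a share of up to 13.6% (3 counts of the total).

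The most crowded stretch was the megabase at 228 to 229 Mb. It held 27 of the 151 DNAJC12KO peaks (17.9%, 12.1 to 24.9%) and 21 of the 111 WT peaks (18.9%, 12.1 to 27.5%). No other 1 Mb bin had more than 8 DNAJC12KO or 13 WT peaks. Protein-coding genes with a peak in the record extended by 3 kb included WNT3A, ARF1, GUK1 and RNF187 in both lists, C1orf35, MRPL55 and IBA57 in the DNAJC12KO list alone, and TRIM11 in the WT list alone. The genes without a peak included the histone genes H3-4, H2AC25 and H2BC26, besides TRIM17 and RHOU. Median background in the stretch was 2.28 in DNAJC12KO and 2.09 in WT, against 2.30 in DNAJC12KO and 2.10 in WT in the rest of the arm.

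The genes named here hold 9 of the 27 DNAJC12KO and 6 of the 21 WT peaks of the stretch, so they do not account for most of its peaks. WNT3A, a secreted WNT ligand, had 2 DNAJC12KO peaks (highest fold 3.66) and 1 WT peak (3.27). ARF1 had 2 DNAJC12KO peaks (highest 3.74) and 1 WT peak (3.43). GUK1, guanylate kinase of nucleotide metabolism, had 2 peaks in each list, with highest folds of 3.74 in DNAJC12KO and 3.56 in WT. RNF187, a ubiquitin ligase gene, had an overlapping peak in each list, with folds of 3.44 in DNAJC12KO and 3.81 in WT. C1orf35 and MRPL55, a mitochondrial ribosome gene, shared the single DNAJC12KO peak between them (3.39), so that they are not independent. IBA57, for iron-sulfur cluster assembly, had 1 DNAJC12KO peak (3.65), and TRIM11, another ubiquitin ligase gene, had 1 WT peak (3.83). The nearest WT peak was 15.1 kb from IBA57.

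Overlap between the genotypes was limited on the arm as elsewhere. Of the DNAJC12KO peaks 18 (11.9%, 7.22 to 18.2%) overlapped a WT peak by at least 1 bp, where 6.31% of the whole DNAJC12KO list did. Of the WT peaks 18 (16.2%, 9.90 to 24.4%) overlapped a DNAJC12KO peak, where 8.88% of the whole WT list did. On 1p it was 6 DNAJC12KO peaks (4.35%, 1.61 to 9.22%) and 6 WT peaks (6.06%, 2.26 to 12.7%). These intervals meet those of 1q, which does not show equal shares. In each list the 1q interval, of counting error only, lay above the whole-list share. Within 10 kb of a peak of the other list lay 53 DNAJC12KO peaks (35.1%) and 47 WT peaks (42.3%) of 1q, overlaps included. The shares over the whole lists were 29.7% in DNAJC12KO and 40.2% in WT. Within 100 kb the shares were 55.0% in DNAJC12KO and 65.8% in WT on 1q, against 63.0% and 77.0% over the whole DNAJC12KO and WT lists. In the 228 to 229 Mb stretch 7 DNAJC12KO peaks (25.9%) and 7 WT peaks (33.3%) overlapped, and 23 DNAJC12KO (85.2%) and 18 WT peaks (85.7%) had the other list within 10 kb. In the rest of the arm 11 of 124 DNAJC12KO peaks (8.87%) and 11 of 90 WT peaks (12.2%) overlapped.

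In the 19 overlapping pairs the fold of DNAJC12KO minus that of WT ran between -0.51 and 0.44, with 10 pairs higher in DNAJC12KO and 9 higher in WT. All folds on the arm lie in a narrow range, with quartiles of 3.32 and 3.69 in DNAJC12KO and of 3.43 and 3.79 in WT. For this reason nothing is read from the size of the differences within pairs. Of these pairs 13 are described or plotted, 3 of them with no gene within 3 kb. ACTA1 had the highest folds of any pair at a gene, 4.11 in DNAJC12KO and 4.02 in WT. At SEMA6C, a membrane semaphorin of axon guidance, the folds were 3.40 in DNAJC12KO and 3.53 in WT. VANGL2, of planar cell polarity, had 3.29 in DNAJC12KO and 3.03 in WT. SNAP47, a SNARE family gene whose record meets that of the hydroxylase gene JMJD4, had 3.43 in DNAJC12KO and 3.26 in WT. DENND4B, which encodes a regulator of Rab GTPases, had 3.57 in each list, and DCST2 with DCST1 had 3.41 in each. SLC45A3, a prostate-associated transporter gene, had 3.44 in DNAJC12KO and 3.28 in WT. BECN2, a beclin family gene, had 3.51 in DNAJC12KO and 3.46 in WT. GUK1 had 3.74 in DNAJC12KO and 3.30 in WT, in a pair that met over only 27 bp. The widest difference with WT higher was at chr1:227904070-227904947, outside genes, with 3.43 in DNAJC12KO and 3.94 in WT.

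**Figure D3:**
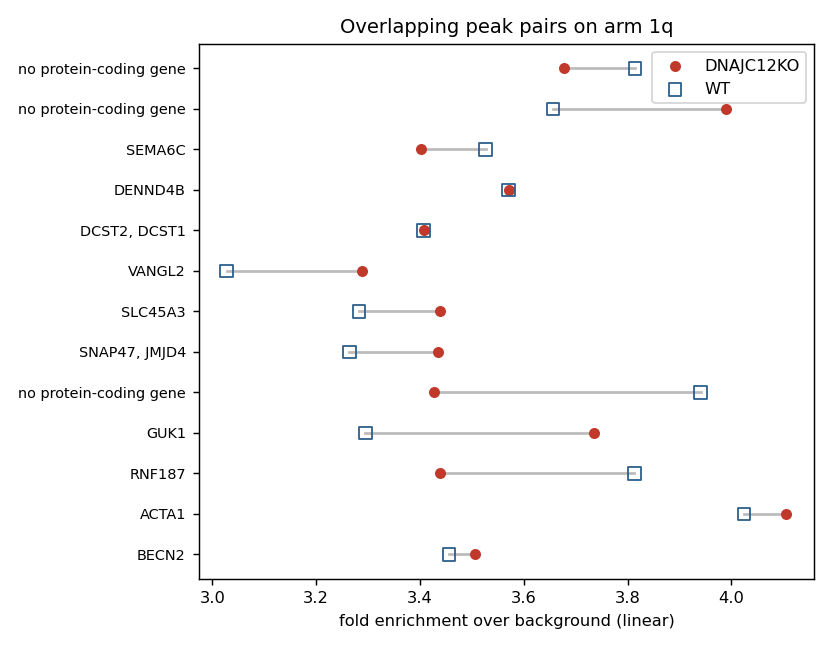
Fold enrichment (x axis, linear) of the DNAJC12KO peak (filled circles) and the WT peak (open squares) in 13 of the 19 overlapping pairs, in order of position from the top, labelled by gene. Differences run both ways and stay between -0.51 and 0.44.

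Of the 973 protein-coding genes of the arm, 97 (9.97%, 8.16 to 12.03%) had a DNAJC12KO peak in the record extended by 3 kb, and 77 (7.91%, 6.30 to 9.79%) had a WT peak. Over all protein-coding genes the shares were 8.26% in DNAJC12KO and 6.49% in WT. With lists of equal length, 67 genes had a DNAJC12KO peak and 77 a WT peak, so this direction turned too. Both lists marked 38 genes of the arm, which is 39.2% of the DNAJC12KO set and 49.4% of the WT set, while 59 were marked in DNAJC12KO alone and 39 in WT alone. Over all chromosomes genes marked in both were 2.93% of all protein-coding genes, 35.5% of the DNAJC12KO set and 45.1% of the WT set, near the shares on the arm. Within 3 kb of an end, 44 genes (4.52%) had a peak in each list, 11 of them in both, against 3.86% of all genes in DNAJC12KO and 3.20% in WT. With lists of equal length, 27 genes had a DNAJC12KO peak at an end and 44 a WT peak. A gene without a peak in a list had no region past the authors' threshold, which does not show that the mark was absent.

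Among the genes with most peaks over both lists, SNAP47 had 1 DNAJC12KO and 4 WT peaks. NAV1, a neuron navigator gene of axon growth, had 3 in DNAJC12KO and 1 in WT, and KIF21B, a kinesin of neurons, had 4 in DNAJC12KO and none in WT. TRIM46, whose product organises microtubules of the axon, had none in DNAJC12KO and 3 in WT, and so had PPFIA4, a synaptic liprin. DCST1 had 1 DNAJC12KO and 2 WT peaks, as had SYT2, a calcium sensor of synaptic vesicles. Long genes offer more room, and NAV1 spans 287.8 kb while TRIM46 spans 11.1 kb.

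**Figure D4:**
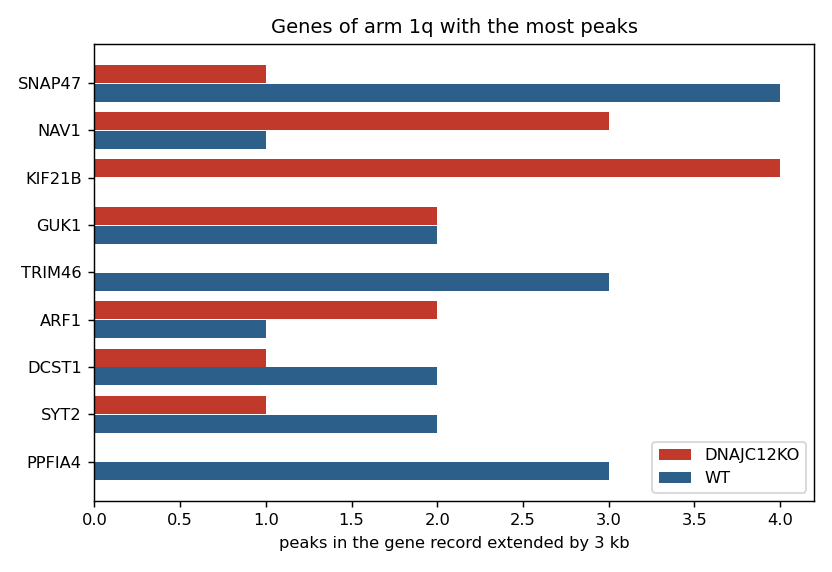
Number of DNAJC12KO peaks (upper bar) and WT peaks (lower bar) in the record extended by 3 kb, for genes among those of arm 1q with the most peaks over both lists. Each has at most 4 in either list, and KIF21B, TRIM46 and PPFIA4 have peaks in 1 list alone.

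Counts for 10 lists of genes by function follow, 4 of them with no marked gene. The lists and their members were chosen with earlier results of these data known, so their shares may reflect the choice. Of 18 WNT signalling and axon guidance genes 7 had a DNAJC12KO peak (38.9%) and 4 a WT peak (22.2%), 4 of them in both. WNT9A, a WNT ligand next to WNT3A, had folds of 3.93 in DNAJC12KO and 3.70 in WT. NAV1 had 4.06 in DNAJC12KO and 3.35 in WT. DISC1, a scaffold of neuronal development, had 3.81 and SEMA4A, a semaphorin, 3.60, each in the DNAJC12KO list alone. Of 31 neuronal and synaptic genes 7 had a DNAJC12KO peak (22.6%) and 5 a WT peak (16.1%), 2 of them in both. CACNA1E, the R-type calcium channel, had 4.04 and KIF21B 3.85 in DNAJC12KO alone. CHRNB2, a nicotinic receptor subunit, had 2 WT peaks (highest fold 4.23) and its nearest DNAJC12KO peak was 431 kb away. SYT2 had 3.42 in DNAJC12KO and 3.62 in WT.

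Of 14 striated muscle genes 3 had a DNAJC12KO peak (21.4%) and 1, ACTA1, a WT peak (7.14%). Besides ACTA1 those in DNAJC12KO were CACNA1S, the calcium channel of skeletal muscle (3.75), and TNNT2, cardiac troponin T (3.54). Of 11 glycolysis and mitochondrial metabolism genes 4 had a DNAJC12KO peak (36.4%) and 3 a WT peak (27.3%). The 4 in DNAJC12KO were GUK1, IBA57, MRPL55 and COQ8A, none of them a gene of glycolysis. Of these, GUK1, IBA57 and MRPL55 lie in the 228 to 229 Mb stretch. COQ8A, of coenzyme Q synthesis, had 3.10 in DNAJC12KO and 3.78 in WT. PKLR, the pyruvate kinase of liver and red cells, had 2 WT peaks (highest 3.85) and no DNAJC12KO peak within 206 kb. Of 29 chromatin and transcription genes 5 had a DNAJC12KO peak (17.2%) and 4 a WT peak (13.8%), with RNF187 in both. PARP1, of DNA repair (3.82), and INTS3, of the Integrator complex (3.76), were marked in WT alone, as was TRIM11. The INTS3 peak lay 2.7 kb from that gene and inside its neighbour SLC27A3. Marked in DNAJC12KO alone were ZNF687, SMYD3, TRIM67 and ATF3.

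Of 58 epidermal differentiation and S100 genes 1 had a DNAJC12KO peak and 3 a WT peak. TCHH, trichohyalin of the hair follicle, had 3.57 in DNAJC12KO. S100A4 and S100A5 shared 1 WT peak (3.60), and S100A16 had its own (3.49). None of 15 histone genes, 38 immune cell genes and 58 olfactory receptor genes had a peak in either list, which allows shares of up to 20%, 7.89% and 5.17% by the same rule. Outside the immune list, CD247, the zeta chain gene of the T cell receptor, had a DNAJC12KO peak (fold 3.22), so the 0 holds for the listed genes and not for all immune genes of the arm. All these shares stand beside 8.26% of all protein-coding genes in DNAJC12KO and 6.49% in WT. Nothing is read from the differences, as the members were chosen with earlier results known. With so few members no list was tested.

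Some peaks at gene ends had no counterpart within 10 kb of the gene in the other list, at 27 of the 44 genes in DNAJC12KO (61.4%) and 24 of the 44 in WT (54.5%). Over all chromosomes the shares were 62.0% in DNAJC12KO and 51.7% in WT. In DNAJC12KO those with the highest -log10 q were TMEM63A, a mechanosensitive channel (fold 4.25, in a peak shared with EPHX1, an epoxide hydrolase), RD3, a photoreceptor protein (3.99), CACNA1E, ZNF670, a zinc finger gene (4.03), and IGFN1, expressed in skeletal muscle (3.54). The nearest WT peak was 518 kb from TMEM63A and 818 kb from RD3. In WT they were IQGAP3, a scaffold of cell division (4.52), MUC1, a mucin, and TRIM46, which shared a peak (4.54), and ADAR, the RNA editing enzyme, and CHRNB2, which shared another (3.79). The nearest DNAJC12KO peak was 58.5 kb from IQGAP3 and 383 kb from ADAR. Other strong peaks in 1 list lay in CHRM3, the muscarinic M3 receptor (DNAJC12KO, 4.20), 6.23 kb from FCGR3B (DNAJC12KO, 4.53), and at ADAMTSL4 (WT, 5.19, the highest fold of the arm, with a DNAJC12KO peak 3.0 kb away).

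A pair of 3 Mb stretches, chosen after their values were seen, differed in number between the lists. At 153 to 156 Mb there were 7 DNAJC12KO peaks (4.64%, 1.88 to 9.32%) and 27 WT peaks (24.3%, 16.7 to 33.4%). Of its 96 protein-coding genes 6 had a DNAJC12KO peak and 23 a WT peak. Its WT genes included CHRNB2, the potassium channel gene KCNN3 (3.41), the pacemaker channel gene HCN3 (3.55), the metalloproteinase gene ADAM15 (3.65) and the thrombospondin gene THBS3 (3.66), none of which had a DNAJC12KO peak. EFNA3, an ephrin ligand (3.30), had a DNAJC12KO peak alone. At 200 to 203 Mb there were 20 DNAJC12KO peaks (13.2%, 8.28 to 19.7%) and 5 WT peaks (4.50%, 1.48 to 10.2%), at 9 DNAJC12KO and 3 WT genes of 38. The DNAJC12KO genes were KIF21B, CACNA1S, IGFN1, TNNT2, NAV1, RNPEP, ELF3, GPR37L1 and SYT2, with ELF3, an epithelial transcription factor, at 3.55. No peak of either list there had one of the other list within 10 kb. As the stretches were chosen for this difference, it is a description of these 2 libraries.

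Peaks linked to no protein-coding gene numbered 29 in DNAJC12KO and 16 in WT, and 3 in each list overlapped the other list. Their median fold was 3.68 in DNAJC12KO and 3.80 in WT, against 3.45 in DNAJC12KO and 3.55 in WT for gene-linked peaks. Their median background was 2.01 in DNAJC12KO and 1.91 in WT, against 2.37 in DNAJC12KO and 2.10 in WT for gene-linked peaks. As the background is solved from the fold and the -log10 p, the differences in fold and background are not separate results. A few lay in noncoding genes. MIR9-1HG, host of a miR-9 gene, a miRNA family of neural progenitors, had a DNAJC12KO peak (fold 3.48, background 3.37), as had MIR29B2CHG, host of miR-29 genes (3.19, background 3.44). The pseudogene PTPRVP held 2 DNAJC12KO peaks (4.02 and 3.81).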

How the data were processed

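SH-SY5Y chromatin was immunoprecipitated with an H4K5la antibody in DNAJC12KO and WT cells, with an input each. The submitters' processing notes name hg38 and MACS2 2.2.6. Not given in the sources used here are the aligner, the calling options and whether the input served as control. IgG and spike-in material named in the protocols were not used here. The authors called peaks per library and deposited a score (not used), a fold (ratio over background), and -log10 p and -log10 q per peak, averaged over the peak. The lowest deposited -log10 q was 1.01 in DNAJC12KO and 1.03 in WT. The lists give no counts, so depth is unknown, and deeper libraries give more peaks.

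Each list was taken as that of the genotype's immunoprecipitate, since its name stands in the description of both libraries of the genotype. The background b was solved from fold = (k + 1)/(b + 1) and the Poisson p of k fragments, and is approximate because the deposited values are averages. The solution was tested on simulated data. Overlaps used bedtools 2.31.1 (minimum 1 bp). Gene records were those of RefSeq for GRCh38.p14 (58961 records on chromosomes 1 to 22, X and Y, 19866 protein-coding, 831 others left out), without exons. The promoter table gave starts for 15842 of them. Named genes and peaks were the 8 peaks of each list with the highest -log10 q, the 10 genes with most peaks, genes at overlapping pairs, genes of the 228 to 229 Mb stretch, up to 4 members per gene list by best -log10 q, and 5 genes per list marked at an end in that list alone. Any other was picked with its value known, and some genes and the results that need them are not reported here and were left out of the lists. The members and the 10 gene lists were chosen with earlier results of these data known. Shares have exact binomial intervals. Python 3.11.15, numpy 2.4.6, pandas 2.3.3, scipy 1.17.1 and matplotlib 3.10.9 were used. Alternatives were stricter peaks, lists of equal length, and other windows, overlaps and limits.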

Additional observations from a re-analysis of the deposited data

Results flagged for a closer look

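Peaks also lay on an unlocalised scaffold that hg38 assigns to chromosome 1, which has no arm and entered no comparison. The DNAJC12KO list had 2 peaks there, with folds of 3.70 and 3.99 and inferred backgrounds of 4.02 and 5.50. The WT list had 2 peaks there too, with folds of 3.94 and 3.85 and backgrounds of 3.28 and 3.88. All 4 are called out as signal outside the main measurement, and their relation to the pericentromeric pair on the arm was not tested.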

How the results depend on the processing

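With a -log10 q of at least 2, DNAJC12KO kept 16 peaks on the arm, 1 of them overlapping the other list, 1 pericentromeric and 3 at 228 to 229 Mb, and had 4 genes marked at an end, 11 marked anywhere and 4 of the listed genes (27 as deposited). WT kept 7 peaks, 1 of them overlapping and 1 at 228 to 229 Mb, and had 4 genes at an end, 7 anywhere and 1 listed gene (20 as deposited). With a fold of at least 4, DNAJC12KO kept 14 peaks, 1 overlapping, 0 with high background, 0 pericentromeric and 2 at 228 to 229 Mb, with 4 genes at an end, 9 anywhere and 3 listed. WT kept 8, 1, 0, 0 and 2 such peaks, with 5 genes at an end, 9 anywhere and 2 listed. Counting the other list within 10 kb as shared gave 53 DNAJC12KO and 47 WT peaks. High background at 2 times the median gave 4 DNAJC12KO and 2 WT peaks, and at 5 times 0 DNAJC12KO peaks. Genes with a peak within 1 kb of an end were 15 in DNAJC12KO and 20 in WT, and within 10 kb 96 in DNAJC12KO and 81 in WT. With lists of equal length, genes at an end in DNAJC12KO were 27, and the other 17 recounts of these results stayed within 1.5 times. Among those 17 are the WT recounts with lists of equal length, which could not change because the WT list set the length. The causes were not tested beyond the smaller number of peaks or wider window each recount has by construction.

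Among alternatives added after seeing the data, equal lengths left 4 DNAJC12KO and 27 WT peaks at 153 to 156 Mb, and 14 DNAJC12KO and 5 WT peaks at 200 to 203 Mb. Here too the WT counts could not change. The ratio of 1q over 1p background ran between 1.30 and 1.42 in DNAJC12KO and between 1.19 and 1.51 in WT. No paired analysis was possible because each genotype had 1 library and no result came from a test. Unknown depth limits every count, since a place below the authors' threshold is not listed.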

Other observations

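Long stretches of the arm had no peak in either list. There were 7 stretches of over 4 Mb, the longest 10.6 Mb (chr1:190262608-200873785) with 32 protein-coding genes, and another of 7.79 Mb (chr1:182474259-190262145) with 30. These 2 stretches adjoin and are parted by a single WT peak in BRINP3. At the distal end of the 10.6 Mb stretch lay GPR25, a receptor gene with a WT peak (fold 3.41), and then KIF21B with its 4 DNAJC12KO peaks.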
